A study of Mus musculus with 6 samples.

Results

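The genes described here are 10 AP-1 and immediate early genes: the Fos family members Fos, Fosb and Fosl2, the Jun family members Jun, Junb and Jund, the stress-induced factor gene Atf3, and the early response genes Egr1, Ier2 and Nr4a1. They were chosen by symbol out of 22958 gene entries, each has 1 entry, and all 10 passed the filter on low counts that left 12661 genes. Expression was measured by RNA sequencing of polyadenylated RNA from endothelial cells of the mouse embryonic brain, sorted for CD31 (PECAM1) at E11.5 (the embryonic day), with 3 libraries overexpressing Axin1 and 3 control libraries. Axin1 is the scaffold on which beta-catenin is phosphorylated and so committed to breakdown, and the series asked how its overexpression changes expression in these cells. The Axin1 libraries carried the genotype given as Cdhrs5CreERT2:R26Axin1IL+/- and the controls Cdhrs5CreERT2:R26Axin1IL-/-. All 6 came from the strain C57BL/6 x 129/Sv, and every mother had received tamoxifen at E9.5, so the controls carried the tamoxifen-inducible Cre and the drug too. The driver is spelled Cdhrs5 in the labels. The labels call the libraries biological replicates and give no litter, pool or sex, so p-values measure the spread between these libraries only.

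AP-1 is a dimeric transcription factor built from a Jun protein with a second Jun protein, a Fos protein or an ATF protein, which pair through a leucine zipper and bind DNA through the adjoining basic region. Many of its genes, though not all, are immediate early genes. Their transcription is switched on within minutes by growth factors, calcium, stress or shear, without new protein synthesis. This runs through MAP kinases, SRF with its ternary complex partners, and CREB or ATF proteins bound at their promoters. Immediate early genes are also known to be induced while a tissue is dissociated and sorted. In endothelium they are known for responses to VEGF, thrombin and flow.

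Promoter windows of 250 bases before to 50 bases after the annotated start were matched for 8 of the 10 genes in RefSeq (build GRCm38.p6). The windows below are those of the 4 genes whose groups did not overlap (Junb, Atf3, Fosb and Jun) and of Fos, the most abundant member, whose groups did. Capitals mark the core TGACG of the cAMP response element on either strand and the TATA box letters TATAAA. All are written 5′ to 3′ on the gene's own strand.
Junb (chr8:84978699-84978998, minus strand): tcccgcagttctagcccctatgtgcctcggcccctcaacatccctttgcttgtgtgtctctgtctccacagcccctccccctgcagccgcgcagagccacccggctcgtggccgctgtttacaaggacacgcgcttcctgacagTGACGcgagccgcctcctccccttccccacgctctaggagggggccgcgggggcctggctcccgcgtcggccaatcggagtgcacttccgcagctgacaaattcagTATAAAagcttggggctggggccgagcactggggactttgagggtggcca
Atf3 (chr1:191183284-191183583, minus strand): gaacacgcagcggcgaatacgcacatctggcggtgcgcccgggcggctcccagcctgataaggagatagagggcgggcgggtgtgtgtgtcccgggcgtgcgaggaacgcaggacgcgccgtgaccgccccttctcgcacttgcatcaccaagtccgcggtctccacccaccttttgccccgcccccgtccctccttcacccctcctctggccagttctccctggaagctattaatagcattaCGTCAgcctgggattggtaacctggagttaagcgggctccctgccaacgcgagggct
Fosb (chr7:19309996-19310295, minus strand): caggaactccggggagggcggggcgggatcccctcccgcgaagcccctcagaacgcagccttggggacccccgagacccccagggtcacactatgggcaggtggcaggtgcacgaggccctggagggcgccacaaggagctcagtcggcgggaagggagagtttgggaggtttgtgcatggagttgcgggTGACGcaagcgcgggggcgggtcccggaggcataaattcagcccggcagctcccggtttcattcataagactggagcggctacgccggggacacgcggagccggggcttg
Jun (chr4:95052173-95052472, minus strand): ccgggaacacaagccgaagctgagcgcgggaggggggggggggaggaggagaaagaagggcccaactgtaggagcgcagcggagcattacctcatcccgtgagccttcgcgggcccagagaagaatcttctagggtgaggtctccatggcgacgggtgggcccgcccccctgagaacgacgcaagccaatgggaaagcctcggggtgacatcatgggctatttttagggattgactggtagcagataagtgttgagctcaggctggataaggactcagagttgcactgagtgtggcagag
Fos (chr12:85473640-85473939, plus strand): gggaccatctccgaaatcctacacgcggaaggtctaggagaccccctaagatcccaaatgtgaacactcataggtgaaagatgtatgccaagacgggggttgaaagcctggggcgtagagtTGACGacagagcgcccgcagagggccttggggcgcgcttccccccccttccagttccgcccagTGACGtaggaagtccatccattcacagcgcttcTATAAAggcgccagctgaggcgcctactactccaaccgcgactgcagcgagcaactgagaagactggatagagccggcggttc

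The core element TGACG, recognised by CREB and ATF proteins, was found in 5 of the 8 windows (Atf3, Fosb, Junb, Fos and Nr4a1) and in 20.8% of all 32817 windows of that length. The Fos window held it at 66 and at 129 bases before the start, counted to the first base of each match, and that of Nr4a1 held 4 matches. The letters TATAAA stood in the windows of Junb and Fos, 2 of 8, and in 13.6% of all windows. In Fos they began 33 bases before the start, while in Junb they began at base 1 of the RefSeq annotation. No window of the 8 held the AP-1 site TGANTCA (7.81% of all windows), the full palindromic cAMP response element, which contains the core element (1.79%), the EGR site (0.612%) or the serum response element, the CArG box bound by SRF (1.63%). The well-known serum response element of Fos lies further upstream than this window reaches.

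Library totals ranged from 10772492 to 14234409 reads assigned to genes. Axin1, the overexpressed gene, had 79.8, 62.2 and 66.2 CPM (read counts normalised to library size) in Axin1 libraries 1, 2 and 3, against 25.0, 17.6 and 20.8 CPM in controls 1, 2 and 3. Pecam1, which encodes the sorted antigen, lay at 1182 to 1331 CPM in the Axin1 libraries and at 1199 to 1455 CPM in the controls. Cdh5, another endothelial marker gene, had 981, 945 and 924 CPM in Axin1 libraries 1, 2 and 3. In controls 1, 2 and 3 it had 432, 502 and 846 CPM, below every Axin1 library (log2 fold change 0.68, edgeR adjusted p 0.218). All 20 pan-endothelial markers were detected, with a summed level of 12519 to 14711 CPM in the Axin1 libraries and 13207 to 13562 CPM in the controls. Markers of blood cells were present in both groups. The 14 macrophage and microglia markers measured summed to 275, 1355 and 2841 CPM in Axin1 libraries 1, 2 and 3 and to 547, 936 and 491 CPM in controls 1, 2 and 3, and none of the 14 was at 0 in every library.

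In edgeR's quasi-likelihood fit, with p-values adjusted by Benjamini-Hochberg over all 12661 genes, 0 of the 10 genes passed an adjusted p of 0.05, where 0.845% of all tested genes did. At an unadjusted p under 0.05 there were 4 (Junb, Atf3, Jun and Fosb), all higher in the Axin1 libraries, where 9.06% of all tested genes met that in the higher direction. DESeq2 called 1, Junb. It called 6.58% of the 10938 genes to which it gave an adjusted p, the base of that share throughout. limma on log2(RPKM + 1) called 0, where it called 0.0395% of all tested genes. The groups were apart for the same 4 genes. Over all tested genes, 23.8% had groups apart in either direction, and 11.3% had every Axin1 library above every control. In 9 of the 10 the log2 fold change was positive, as it was in 52.5% of all tested genes, and their median was 0.42, against 0.02 over all tested genes.

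**Figure D1:**
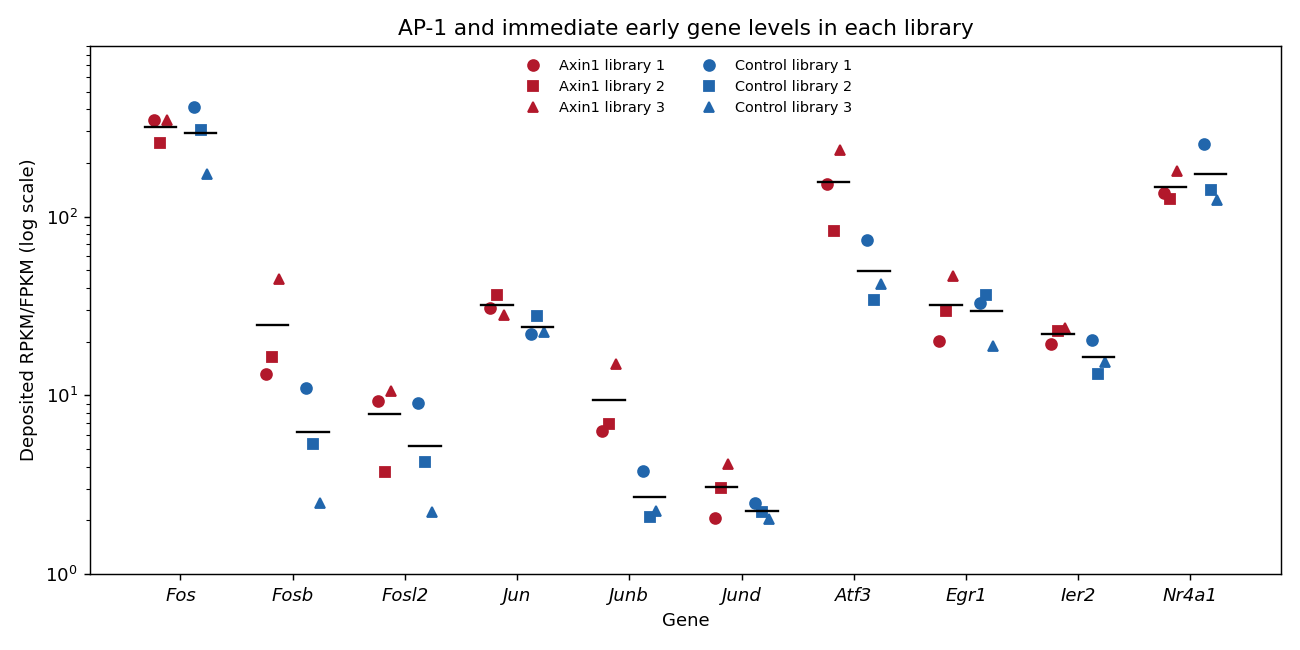
Deposited RPKM/FPKM (log axis) of the 10 genes in each library, with Axin1 libraries in red to the left and controls in blue to the right of each gene, and a black line at each group mean. Red and blue points are apart for Fosb, Jun, Junb and Atf3, and Axin1 library 3 is the highest of the 6 libraries for 7 of the 10 genes.

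Junb encodes a Jun protein that dimerises with Fos proteins and often opposes the activity of Jun. It had 6.30, 6.89 and 15.0 RPKM in Axin1 libraries 1, 2 and 3, against 3.76, 2.09 and 2.25 RPKM in controls 1, 2 and 3. Every Axin1 library lay above every control, and Axin1 library 3 stood well above the other two. The means were 9.40 ± 4.86 RPKM in the Axin1 libraries and 2.70 ± 0.92 RPKM in the controls (SD, n = 3 each). The fitted difference was 1.78 on the log2 scale (SE 0.41, 95% confidence interval 0.83 to 2.73), a 3.43-fold higher level, with an edgeR adjusted p of 0.0959 and a DESeq2 adjusted p of 0.00143. Without Axin1 library 3 the log2 fold change was 1.26 (edgeR adjusted p 0.189), and over the 6 fits that left out 1 library it stayed between 1.26 and 2.11.

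Junb rested on few reads: 147, 182 and 324 in the Axin1 libraries and 82, 51 and 45 in the controls. In the GRCm38 annotation of GENCODE, 173 of its 2301 exon bases overlap the gene Prdx2 on the opposite strand, and the strand setting of the counting is not given in the sources used here, so reads of the pair cannot be told apart there. Prdx2, a peroxiredoxin gene abundant in red cells, had 539, 561 and 478 CPM in Axin1 libraries 1, 2 and 3, against 633, 592 and 662 CPM in controls 1, 2 and 3. Its levels were lower in each Axin1 library than in every control. The part of shared reads in the Junb counts was not tested.

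Jun encodes the founding member of the family, whose protein is activated by JNK phosphorylation. It had 30.9, 36.5 and 28.1 RPKM in Axin1 libraries 1, 2 and 3, against 22.1, 27.6 and 22.6 RPKM in controls 1, 2 and 3. The groups were apart by a narrow margin, between Axin1 library 3 and control 2. The log2 fold change was 0.39 (SE 0.14, 95% confidence interval 0.07 to 0.70). The adjusted p of edgeR was 0.213, and it lay between 0.251 and 0.467 when 1 library was left out. Of its 3189 exon bases, 232 overlap the antisense gene Junos.

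Jund encodes the Jun protein usually made without a stimulus. It had 2.06, 3.03 and 4.13 RPKM in Axin1 libraries 1, 2 and 3, against 2.49, 2.23 and 2.03 RPKM in controls 1, 2 and 3, so the groups overlapped. The log2 fold change was 0.43 (95% confidence interval -0.26 to 1.11, edgeR adjusted p 0.517) with 73 to 135 reads in the Axin1 libraries and 62 to 83 in the controls. The antisense gene Gm11175 overlaps 877 of its 1668 exon bases, which makes the Jund count uncertain.

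Per length, Jun was the main member of its family in all 6 libraries, and the share of Junb differed. Junb made up 16.1%, 14.8% and 31.8% of the summed Jun, Junb and Jund RPKM in Axin1 libraries 1, 2 and 3, against 13.3%, 6.53% and 8.37% in controls 1, 2 and 3. The summed level of the family was 39.2, 46.5 and 47.2 RPKM in Axin1 libraries 1, 2 and 3, against 28.3, 31.9 and 26.9 RPKM in controls 1, 2 and 3. Both the share of Junb and the summed level had groups apart, and neither was tested.

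Fos encodes the partner that binds DNA only as a dimer with a Jun protein, and it was the most abundant of the 10 genes. It had 348, 258 and 346 RPKM in Axin1 libraries 1, 2 and 3, against 408, 304 and 173 RPKM in controls 1, 2 and 3. The groups overlapped fully, with control 1 the highest and control 3 the lowest of the 6 libraries. By mean RPKM Fos ranked 326 of 12661 tested genes in the Axin1 libraries and 373 in the controls. The log2 fold change was 0.09 (SE 0.32, 95% confidence interval -0.70 to 0.87, edgeR adjusted p 0.928), and it was -0.21 without control 3.

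Fosb, whose transcript also gives the truncated and long-lived protein DeltaFosB, varied most. It had 13.2, 16.4 and 45.0 RPKM in Axin1 libraries 1, 2 and 3, against 11.0, 5.32 and 2.51 RPKM in controls 1, 2 and 3. The groups were apart, but Axin1 library 1 and control 1 lay close together. The means were 24.9 ± 17.5 RPKM in the Axin1 libraries and 6.26 ± 4.30 RPKM in the controls (SD, n = 3 each). The log2 fold change was 1.96 (SE 0.75, 95% confidence interval 0.08 to 3.84), and the adjusted p of edgeR was 0.275. Leaving out Axin1 library 3 gave a log2 fold change of 1.20, and leaving out control 1 gave 2.65. The highest normalised level was 18.2 times the lowest for Fosb, where the median of that ratio over all tested genes was 1.66.

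Fosl2, which encodes the Fos-related antigen Fra-2, had 9.26, 3.74 and 10.6 RPKM in Axin1 libraries 1, 2 and 3, against 9.11, 4.26 and 2.23 RPKM in controls 1, 2 and 3. Libraries with the number 1 were near each other across the groups, as were those with the number 2, and the libraries with the number 3 lay at the extremes. The log2 fold change was 0.57 with a wide 95% confidence interval of -1.02 to 2.17 (edgeR adjusted p 0.705). Without control 3 it was 0.19, and without control 1 it was 1.27.

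Within the Fos family, Fos made up 86.2% to 93.9% of the summed RPKM in the Axin1 libraries and 95.3% to 97.3% in the controls. The share of Fosb was 3.56%, 5.88% and 11.2% in Axin1 libraries 1, 2 and 3, against 2.56%, 1.70% and 1.41% in controls 1, 2 and 3. The groups were apart for both shares, while the summed family level overlapped, at 278 to 402 RPKM in the Axin1 libraries and 177 to 428 RPKM in the controls. No test was made of the shares.

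**Figure D2:**
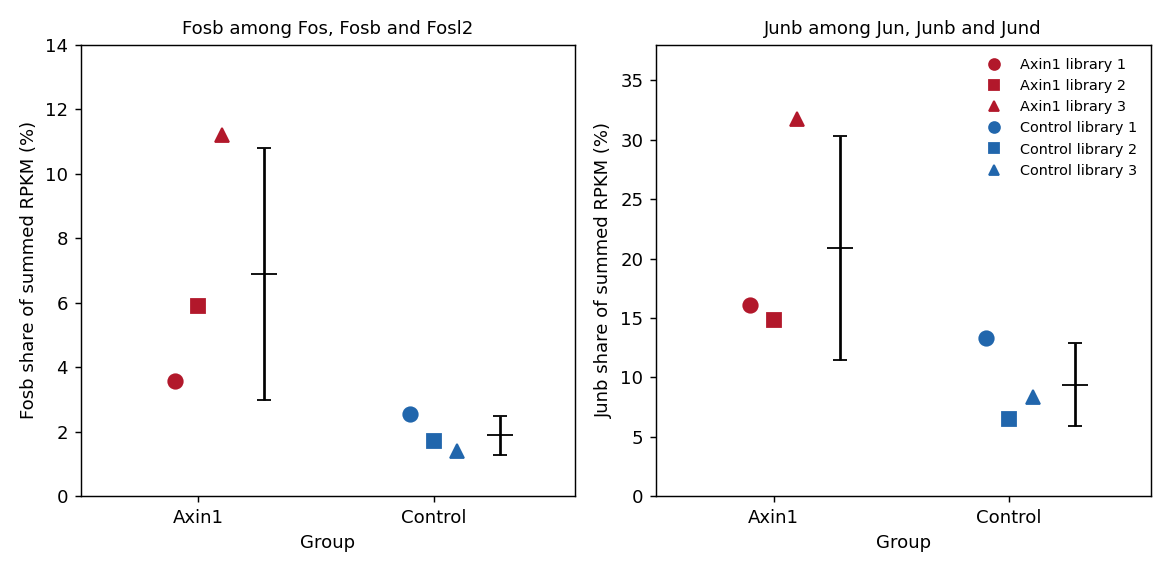
Share of Fosb in the summed RPKM of Fos, Fosb and Fosl2 (left) and of Junb in that of Jun, Junb and Jund (right), in percent, with a point per library and the group mean ± SD (n = 3 each) beside the points. Axin1 libraries lie above all controls in both panels, and Axin1 library 3 is the highest, at 11.2% and 31.8%.

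Atf3 encodes a stress-induced factor that dimerises with Jun proteins and represses many promoters. It had 152, 82.8 and 235 RPKM in Axin1 libraries 1, 2 and 3, against 73.6, 34.0 and 42.1 RPKM in controls 1, 2 and 3. All Axin1 libraries lay above all controls, although Axin1 library 2 and control 1 were close. The means were 157 ± 76.1 RPKM in the Axin1 libraries and 49.9 ± 20.9 RPKM in the controls (SD, n = 3 each). The log2 fold change was 1.63 (SE 0.49, 95% confidence interval 0.40 to 2.86). The adjusted p was 0.193 in edgeR and 0.0526 in DESeq2. When 1 library was left out the log2 fold change stayed between 1.21 and 2.04, and the adjusted p of edgeR lay between 0.176 and 0.423.

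For the 3 early response genes outside AP-1 the groups overlapped. Egr1, a zinc-finger factor induced through SRF, had 20.2, 29.7 and 46.5 RPKM in Axin1 libraries 1, 2 and 3, against 33.0, 36.6 and 18.8 RPKM in controls 1, 2 and 3. Its log2 fold change was 0.10 (95% confidence interval -0.80 to 1.01, edgeR adjusted p 0.923) and turned to -0.27 without Axin1 library 3 and to -0.16 without control 3. Ier2, which encodes a small nuclear early response protein, had 19.4, 23.0 and 23.9 RPKM in Axin1 libraries 1, 2 and 3, against 20.5, 13.2 and 15.4 RPKM in controls 1, 2 and 3. Axin1 library 1 lay within the range of the controls and the other two above it, and the log2 fold change of Ier2 was 0.41 (95% confidence interval -0.04 to 0.86, edgeR adjusted p 0.334). Nr4a1, an orphan nuclear receptor gene induced by VEGF in endothelium, had 135, 126 and 180 RPKM in Axin1 libraries 1, 2 and 3, against 256, 140 and 124 RPKM in controls 1, 2 and 3. It was the only member with a negative log2 fold change, -0.26 (95% confidence interval -1.01 to 0.50, edgeR adjusted p 0.73), and that was 0.15 without control 1.

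**Figure D3:**
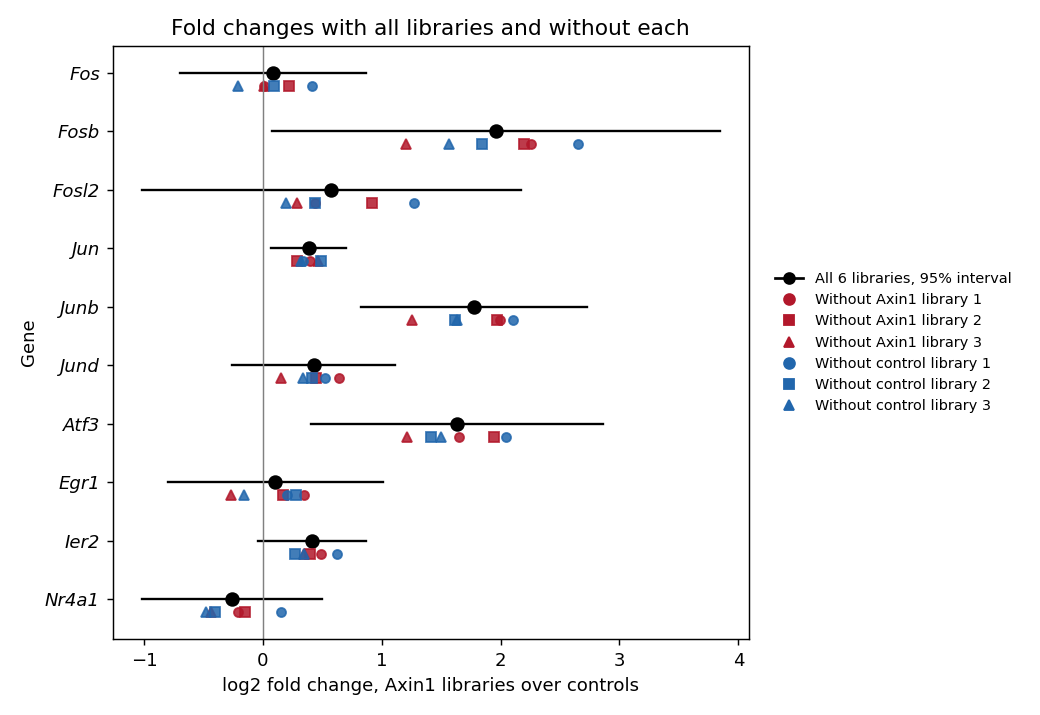
log2 fold changes of the 10 genes, Axin1 libraries over controls, from edgeR: black points with 95% confidence intervals for all 6 libraries, and coloured points for the fits without each library in turn. The intervals of Fosb, Jun, Junb and Atf3 lie above 0, and the points of Fos, Egr1 and Nr4a1 fall on both sides of it.

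Per length, the order of the levels differed between the groups in the places of Atf3, Nr4a1, Fosb, Ier2, Junb and Fosl2. In the Axin1 libraries the order of mean RPKM, from high to low, was Fos, Atf3, Nr4a1, Egr1, Jun, Fosb, Ier2, Junb, Fosl2 and Jund. In the controls the order was Fos, Nr4a1, Atf3, Egr1, Jun, Ier2, Fosb, Fosl2, Junb and Jund. In the Axin1 libraries the ranges of neighbours in that order were apart between Fos and Atf3 (lowest 258 against highest 235 RPKM), between Nr4a1 and Egr1 (126 against 46.5 RPKM) and between Ier2 and Junb (19.4 against 15.0 RPKM), and overlapped for the other neighbours. In the controls they were apart between Nr4a1 and Atf3 (124 against 73.6 RPKM), between Jun and Ier2 (22.1 against 20.5 RPKM) and between Ier2 and Fosb (13.2 against 11.0 RPKM), and overlapped for the other neighbours. By mean RPKM Atf3 ranked 714 of 12661 tested genes in the Axin1 libraries and 2037 in the controls, and Junb ranked 6252 in the Axin1 libraries and 9339 in the controls.

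Single libraries carried much of the spread. Axin1 library 3 had the highest normalised level of 7 of the 10 genes, where it was the highest library for 21.2% of all tested genes. Control 3 had the lowest level of 7 of the 10, where it was the lowest for 17.2% of all tested genes. The title numbers 1813 and 1814 each name a library of both groups, and the labels do not say what they mark. Within these numbers, log2 ratios of Axin1 over control level were 0.71 and 1.68 for Junb, 1.01 and 1.25 for Atf3, 0.24 and 1.59 for Fosb and 0.45 and 0.37 for Jun. For Fos they were -0.26 and -0.27, for Egr1 -0.75 and -0.33, and for Nr4a1 -0.96 and -0.19. For Fosl2 they were -0.01 and -0.22, for Jund -0.32 and 0.42, and for Ier2 -0.11 and 0.77. Junb, Atf3, Fosb and Jun were thus higher in the Axin1 library of each number, which follows from their groups being apart and adds nothing to it. Fos, Egr1 and Nr4a1 were lower in the Axin1 library of each number. Fosl2 was lower in that of 1814. In 1813 it was nearly equal, at 55.0 CPM in the Axin1 library and 55.4 CPM in the control, and at 9.26 and 9.11 RPKM.

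Axin1 library 3, with the highest Junb, Atf3 and Fosb, also had the highest summed level of macrophage markers, 2841 CPM, led by Cx3cr1 and C1qb at 581 and 496 CPM. In Axin1 library 1 that sum was 275 CPM, below all 3 controls. Junb, Atf3, Fosb and Jun lay above all controls in that library, as genes with groups apart do in every Axin1 library by definition. Fosb did so only narrowly (13.2 against 11.0 RPKM in control 1). The 11 megakaryocyte and platelet markers summed to 735, 1962 and 2553 CPM in Axin1 libraries 1, 2 and 3 and to 1636, 1542 and 1661 CPM in controls 1, 2 and 3. The 10 erythroid markers, among which Hba-a1 was at 0 in every library, summed to 736, 1772 and 3018 CPM in Axin1 libraries 1, 2 and 3 and to 2089, 2990 and 4123 CPM in controls 1, 2 and 3. The 14 pericyte and mesenchyme markers summed to 136, 212 and 167 CPM in Axin1 libraries 1, 2 and 3 and to 66.2, 108 and 180 CPM in controls 1, 2 and 3. In these bulk samples, fewer cells of a type and less RNA per cell cannot be told apart. The part of these cells in the levels of AP-1 genes was not tested.

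The list of other AP-1 family genes gave 1 call in edgeR. It is wider than the Jun, Fos and ATF genes described above and also holds Maf, Nfe2l and CREB-related genes. Of 17 tested genes out of 21, 1 rose and 0 fell, where 0.355% of all tested genes were called higher. Their median log2 fold change was 0.29, and it was 0.17 without Axin1 library 3, 0.15 without control 3, 0.45 without Axin1 library 2 and 0.53 without control 1. The gene that rose was Nfe2l1, a cap'n'collar factor that drives proteasome genes, with 77.8, 72.0 and 72.9 CPM in Axin1 libraries 1, 2 and 3, against 41.7, 42.5 and 46.8 CPM in controls 1, 2 and 3. Its libraries were tight within each group and well apart between them, with a log2 fold change of 0.77 (SE 0.12, edgeR adjusted p 0.038). The adjusted p was 0.0744, 0.146, 0.0869, 0.145 and 0.198 without Axin1 library 1, 2 or 3 and without control 1 or 2, and 0.0111 without control 3. Batf3 and Mafk had log2 fold changes of 1.81 and 1.39 without passing in edgeR (adjusted p 0.142 and 0.214), Batf3 at under 2 CPM in every library. At an unadjusted p under 0.05 the list had 6 genes, 5 higher and 1 lower, where 17.2% of all tested genes met that. The lower one was Batf, with its groups apart (log2 -0.67, edgeR adjusted p 0.262). DESeq2 called 2 of the 17, Nfe2l1 and Mafk (DESeq2 adjusted p 0.0125 for Mafk). It called 6.58% of all genes to which it gave an adjusted p.

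Among 45 tested of 49 other immediate early genes, 0 passed in edgeR, with 7 at an unadjusted p under 0.05, all higher, and 2 called by DESeq2. Over all tested genes, 9.06% were higher at an unadjusted p under 0.05. DESeq2 called 6.58% of all genes to which it gave an adjusted p. Positive log2 fold changes were seen in 38 of the 45, and their median was 0.42, against 0.02 over all tested genes. The median was 0.16 without Axin1 library 3 and 0.77 without control 1. The 4 with the smallest p were Socs3, a feedback inhibitor of cytokine signalling (log2 0.89), the growth regulator Myc (0.74), Gadd45b, a stress sensor (1.06), and Arc, a gene known from neuronal activity (1.93), at edgeR adjusted p values of 0.177 to 0.233. Socs3 had 37.6, 24.7 and 28.5 CPM in Axin1 libraries 1, 2 and 3, against 22.3, 16.3 and 10.3 CPM in controls 1, 2 and 3, with the groups apart.

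Upstream of these genes, 36 genes of the MAP kinase pathway to SRF and CREB had a median log2 fold change of -0.01, and 1 rose and 0 fell, where 0.355% of all tested genes were called higher and 0.845% in either direction. The gene that rose was Map2k3, which encodes a kinase that activates p38, with 65.9, 95.2 and 113 CPM in Axin1 libraries 1, 2 and 3, against 27.1, 24.5 and 40.2 CPM in controls 1, 2 and 3 (edgeR adjusted p 0.044). Without Axin1 library 2 or 3 or control 1 or 2 the edgeR adjusted p of Map2k3 was 0.158, 0.102, 0.177 or 0.207, and neither the edgeR fit without robust shrinkage nor limma called a gene of this list. Map2k1, the MEK1 gene, Mef2c, an endothelial and muscle factor gene, and Mapk8, the JNK1 gene, had log2 fold changes of 0.57, 0.44 and 0.84 without passing in edgeR (adjusted p 0.0873, 0.115 and 0.123). DESeq2 called 4 of the 36, Map2k3 and these 3 (DESeq2 adjusted p 0.0227, 0.0383 and 0.0179 for Map2k1, Mef2c and Mapk8). It called 6.58% of all genes to which it gave an adjusted p. The groups were apart for each of these 4 genes, as they were for 17 of the 36, where 23.8% of all tested genes had groups apart.

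Of 21 tested among 26 genes known as AP-1 or EGR targets, 0 passed edgeR's test, 3 had an unadjusted p under 0.05, where 17.2% of all tested genes did, and DESeq2 called 2, where it called 6.58%. The median log2 fold change was 0.20, and its sign rested on Axin1 library 3: it was -0.08 without that library, 0.37 without Axin1 library 1 and 0.31 without control 3. The integrin gene Itga5 stood at 320 ± 9.25 CPM in the Axin1 libraries and 203 ± 50.4 CPM in the controls (SD, n = 3 each, log2 0.66, edgeR adjusted p 0.106). Plaur, the urokinase receptor gene, had a log2 fold change of 0.88 and the protease inhibitor gene Timp1 one of -0.61 (edgeR adjusted p 0.178 and 0.158). The heme oxygenase gene Hmox1 had one of 0.54 (edgeR adjusted p 0.341).

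Of 17 heat shock and dissociation stress genes, 0 passed edgeR's test, 3 had an unadjusted p under 0.05, where 17.2% of all tested genes did, and DESeq2 called 2, where it called 6.58%. The median log2 fold change was 0.15, and it was 0.03 without Axin1 library 1, 0.26 without Axin1 library 2 and 0.31 without control 1. The inducible chaperone gene Hspa1a had 36.4, 15.8 and 38.1 CPM in Axin1 libraries 1, 2 and 3, against 8.92, 8.36 and 9.47 CPM in controls 1, 2 and 3 (log2 1.75, edgeR adjusted p 0.0561). Its groups were apart, and the controls lay close together. The co-chaperone genes Bag3 and Dnajb1 had log2 fold changes of 0.98 and 0.74, and the heat shock factor gene Hsf1 had one of 0.93 (edgeR adjusted p 0.125, 0.285 and 0.337). The summed level of the list was 13873, 10123 and 10963 CPM in Axin1 libraries 1, 2 and 3 and 13719, 11005 and 11477 CPM in controls 1, 2 and 3, so it overlapped. The part of stress during dissociation in the AP-1 levels was not tested.

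**Figure D4:**
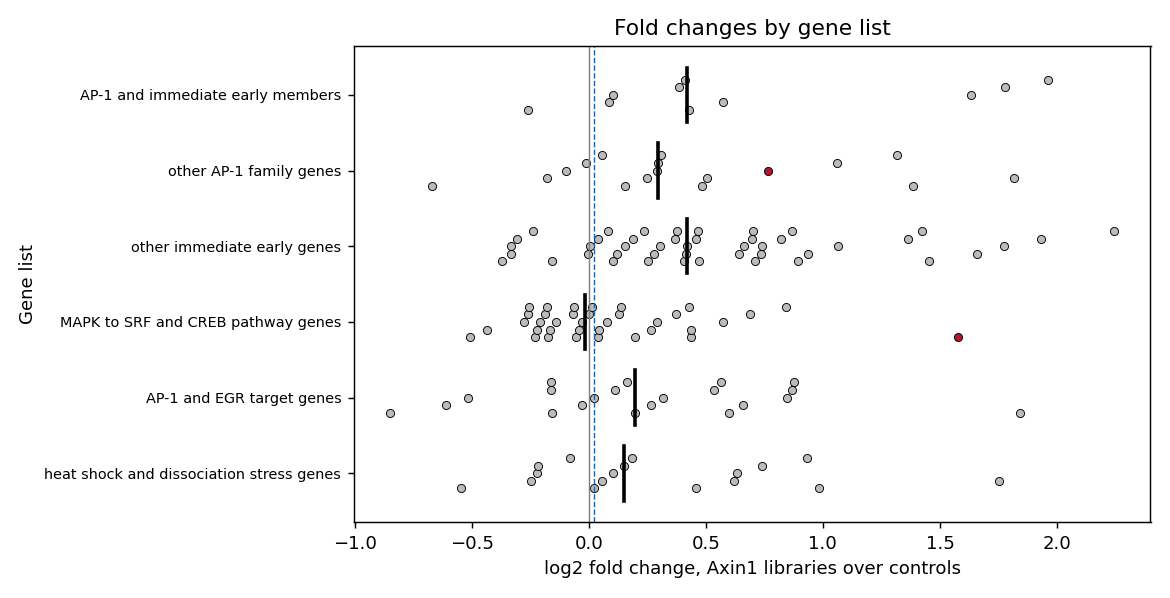
log2 fold changes, Axin1 libraries over controls, of the tested genes in 6 lists, with red points for genes past an edgeR adjusted p of 0.05 and a black bar at each list's median. The dashed line is the median of all tested genes, 0.02, and the red points are Nfe2l1 and Map2k3.

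Over the 6 libraries, the tested genes most like Fos in log2 CPM (Pearson r, a description that shares depth and libraries) were BC052040, Rpl3, Otud1, Scpep1 and H3f3b, with r of 0.98 to 0.99. Those most like Junb were Abcc10, Sirt2, Smek2, Tmem50b and Per2, also with r of 0.98 to 0.99. None of these 10 genes passed edgeR's test between the groups, with adjusted p values between 0.193 and 0.991.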

How the data were processed

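For every library the authors deposited raw read counts by RefSeq gene entry and, beside them, RPKM/FPKM values, per the file headers. Bowtie and the build mm9 are named, without versions, in the submitters' processing notes. How reads were counted, with or without strand, and which gene lengths entered RPKM is not given in the sources.

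Counts were tested with edgeR 4.0.16 (R 4.3.3): quasi-likelihood test, robust fit, TMM normalisation, filterByExpr defaults (minimum count 10, minimum total 15), no covariates, Benjamini-Hochberg adjustment over 12661 genes, two-sided, threshold 0.05. The SE is the log2 fold change divided by the square root of F. CPM values are TMM-normalised. DESeq2 1.42.0, and limma 3.58.1 on log2(RPKM + 1) and log2(RPKM + 0.1), were alternatives, with other filters, scalings, left-out libraries and replicate blocks. The edgeR fit was run once on simulated counts as a check of the code. Counting depth limits low members such as Junb and Jund.

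The genes and lists were chosen with earlier results of these data known. Named were the 10 genes, Axin1, marker genes, up to 4 genes of smallest p per list and 5 genes most like Fos and Junb. Batf was named in addition, as the gene of its list that was lower at an unadjusted p under 0.05. Of the list entries, 3 were not analysed here, and neither were protein sequences. Promoters are from RefSeq (GRCm38.p6), another build than the counts.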

Additional observations from a re-analysis of the deposited data

How the results depend on the processing

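Of the 10 AP-1 and immediate early genes, 0 passed under every alternative except DESeq2 (1, Junb) and the fit with a replicate block on the title number. The latter uses the 4 libraries whose number occurs in both groups. It called 3 of the 10 (Junb and Atf3 higher, Egr1 lower at -0.54), where it called 1500 of 12628 tested genes. That block fit gave -0.27 for Fos and -0.12 for Fosl2, and it leaves out both libraries numbered 3. Leaving out 1 library gave log2 fold changes of -0.21 (without control 3) to 0.41 for Fos, -0.27 (without Axin1 library 3; -0.16 without control 3) to 0.35 for Egr1, and -0.48 to 0.15 (without control 1) for Nr4a1. The cause of these changes was not tested. Genes with every Axin1 library above every control numbered 4 to 6 of the 10 when 1 library was left out, a count added after seeing the data, where 14.7% to 19.6% of all tested genes met that. Leaving out a library cannot make groups that are apart overlap. The count of 4 with all libraries could thus only stay or rise, and its staying is no check of the result.

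Over all genes, 107 were called (45 higher, 62 lower). With no filter on low counts there were 197 (94 and 103), with DESeq2 720 (401 and 319), and without robust shrinkage 51 (21 and 30). limma called 5 (1 and 4) on log2(RPKM + 1) and 0 (0 and 0) on log2(RPKM + 0.1), with 2068 at an unadjusted p under 0.05 in the last. Leaving out 1 library gave 0 to 695 calls, 0 to 513 higher and 0 to 182 lower. The counts of 0 came without control 2 or Axin1 library 2, where edgeR gave 1539 and 1733 genes an unadjusted p under 0.05. The block on title numbers gave 1500 calls (969 and 531).

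With the descriptions' replicate number as a block over all 6 libraries, 105 genes were called (51 and 54) and 0 of the 10, and Nfe2l1 was not called. Deviations of libraries with the same replicate number correlated across genes at 0.23, 0.15 and -0.02, so these replicate numbers were not taken to pair all 6 libraries. The pairs at 0.23 and 0.15 also share a title number (1813 and 1814), while the pair at -0.02 has 1961 and 2198. Whether the title number pairs libraries was thus not settled. Axin1 library 3 correlated best with control 2, at 0.17. Low read counts limit Junb and Jund most.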
